A study of Rattus norvegicus with 12 samples.

Results

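The genes described here build cholesterol and fatty acids or control that synthesis. They were followed in mucosal scrapes of the jejunum and the duodenum of Belgrade rats. The 33 genes were listed by function, and a probe set was taken where its only gene symbol was on the list and its scaled signal averaged 100 or more. Of the 33 genes, 32 had a probe set, and 31 genes passed with 49 of 55 probe sets, out of 10067 genes and 17694 probe sets tested in all. Hmgcs1, the cytosolic HMG-CoA synthase, had no single-gene probe set and was not analysed here. Scd, the desaturase that makes oleate, did not pass. Its only probe set averaged 48.9 and lay between 2.99 and 65.8 on 11 arrays and at 242 on b/b jejunum replicate 2. Just inside the limit lay the dimmest of the Ggps1 probe sets with a mean of 107, and just outside lay the dimmer Scap probe set with a mean of 99. Each gene is given by its brightest probe set unless stated otherwise.

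The Belgrade rat carries a recessive mutation of Slc11a2, which encodes the intestinal iron transporter DMT1. That mutation changes an amino acid of the transporter and does not remove its mRNA, so the Slc11a2 signal was no check of genotype. The groups were b/b jejunum, +/b jejunum, b/b duodenum and +/b duodenum, with 3 arrays each and 12 arrays in all. All rats, the heterozygotes included, carried at least 1 copy of the b allele, and wild-type rats were not analysed here. An array stands for a group of rats, not for 1 animal, and each of the 6 rat groups gave both segments. Ages, sexes, diets and the number of rats in a group are not stated in the labels.

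Cells make cholesterol and isoprenoids from acetyl-CoA through the mevalonate pathway, the squalene branch and a long series of sterol steps, and fatty acids through carboxylation and repeated elongation. The transcription factors SREBP-2 (Srebf2) and SREBP-1 (Srebf1) drive most of these genes. Scap escorts them out of the endoplasmic reticulum when sterols are scarce, and the Insig proteins hold them there when sterols are plentiful. The small intestine is known both as an absorber of dietary and biliary cholesterol and as a site of its synthesis.

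Values are array signals on a linear scale after each array was set to a trimmed mean of 500. Fold changes are differences of log2(signal + 16) with the standard error of the fit, which understates changes of dim genes. A probe set was called when its limma p-value, adjusted by Benjamini-Hochberg over all 17694 probe sets, was at most 0.05. Signals of different probe sets are not compared with each other. In whole scrapes, fewer cells of a type and less RNA per cell cannot be told apart.

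The arrays were not uniform. Before scaling, the trimmed mean was 51.6 on +/b duodenum replicate 2 and 126.6 on +/b duodenum replicate 3, against 500.2 on the other 10 arrays. The array of b/b duodenum replicate 1 had the lowest median Spearman correlation to the others, 0.836, against 0.875 to 0.917. Enterocyte markers (8 of 10 measured) averaged 14.12 to 15.57 on the log2 scale on the jejunum arrays and 14.08 to 15.96 on the duodenum arrays. Exocrine pancreas markers (13 of 14 measured) averaged 13.69 on +/b duodenum replicate 2 and 9.21 on b/b duodenum replicate 3, against 5.87 to 6.94 on the other 10 arrays. Proliferation and crypt markers (11 of 12 measured) averaged 8.64 to 9.72 in the jejunum, against 7.93 to 9.09 in the duodenum. Goblet, Brunner gland and Paneth markers (6 of 7 measured) averaged 13.37 to 14.74 in the jejunum, against 12.52 to 14.06 in the duodenum. Blood and reticulocyte markers (3 of 6 measured) averaged 9.26 to 10.54 on the b/b arrays, against 7.47 to 8.59 on the +/b arrays. The part of these markers in the results below was not tested. Some values are given without the 2 arrays of high pancreas signal. Those arrays also stood apart otherwise, +/b duodenum replicate 2 in its trimmed mean before scaling. On b/b duodenum replicate 3 the ratio of the 3′ to the 5′ beta-actin control was 2.96. Such values therefore cannot single out the part of pancreas.

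Most genes of sterol synthesis had lower signals in the jejunum than in the duodenum. Of the 31 genes, 2 passed the test with the arrays treated as independent and 11 when segments were compared within rat groups. The shares of all probe sets were 1.4% and 4.49%. Over both genotypes the median log2 difference of the 31 genes, jejunum minus duodenum, was -0.45, against a median of 0.07 over all probe sets. Of the 31 genes, 26 (83.9%) lay below 0, against 40.2% of all probe sets. All 11 genes of the sterol steps lay below 0 (median -0.55), as did 6 of 7 genes of the mevalonate and isoprenoid steps (median -0.51). The 6 fatty acid synthesis genes had a median of -0.10 and the 7 regulators one of -0.18. These directions are those after scaling. Without it, the median of all probe sets moved to 0.84 and that of the 31 genes to 0.41, so that 25 of 31 genes lay below the median of all probe sets.

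With all 12 arrays treated as independent, 2 of the 31 genes passed the test, Tm7sf2 and Elovl6, both lower in the jejunum, where 1.4% of all probe sets were called. At an unadjusted p of at most 0.05, 15 genes (48.4%) were lower and 0 were higher, against 4.37% of all probe sets lower and 8.07% higher. When segments were compared within rat groups (the rat group as a block), 11 genes were called lower and 0 higher. In that fit 4.49% of all probe sets were called, and 2.18% were called lower, against 35.5% of the 31 genes. The 11 genes were Idi1, Fdps and Mvd of the mevalonate steps, Fdft1, Sqle, Cyp51, Tm7sf2, Msmo1 and Sc5d of the sterol steps, the regulator Insig1, and Elovl6. With the block as a random effect, 8 of them were called, without Fdft1, Msmo1 and Mvd, and 4.02% of all probe sets. Leaving out 1 rat group at a time moved the count under the block between 5 and 18. It was 18 without b/b group 1, and 5 without b/b group 2 or +/b group 1. The shares of all probe sets called in these leave-out fits are not given here. Cyp51, Elovl6, Fdps, Mvd and Tm7sf2 were called in all 6 of those fits. The block takes arrays of 1 genotype with the same replicate number as 1 rat group, and same-numbered arrays of different genotypes, which are different rats, also deviated together in most pairs (correlation -0.06 to 0.45).

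**Figure D1:**
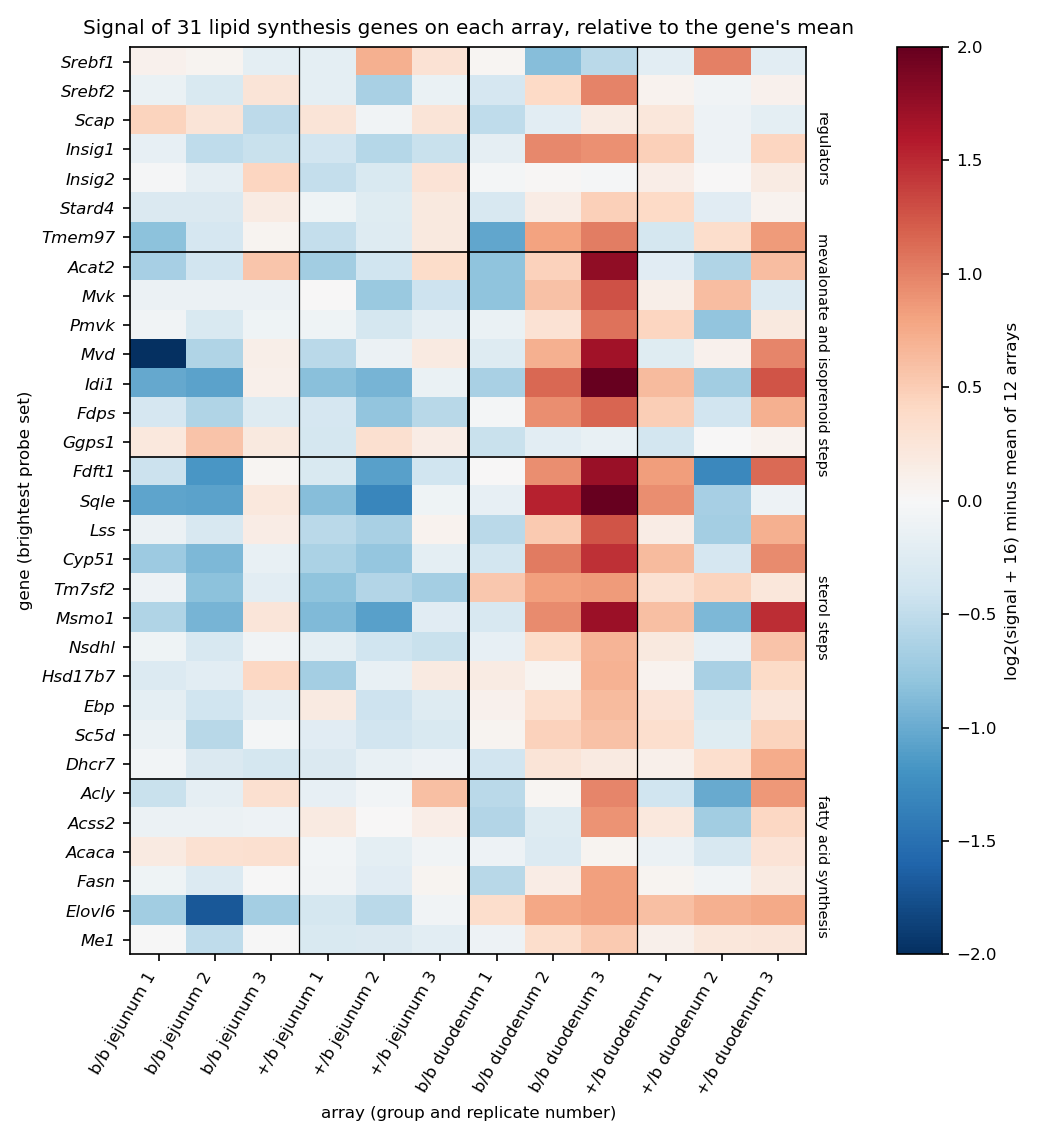
Each cell gives log2(signal + 16) of 1 gene on 1 array minus the gene's mean over the 12 arrays, from blue (lower) to red (higher). The arrays run from b/b jejunum and +/b jejunum on the left to b/b duodenum and +/b duodenum on the right, and the genes are ordered by role. Most sterol synthesis genes are blue on the jejunum arrays other than b/b jejunum replicate 3, and red on b/b duodenum replicates 2 and 3. On b/b jejunum replicate 3, 9 of the 18 mevalonate and sterol genes lie above their mean. The arrays of b/b duodenum replicate 1 and +/b duodenum replicate 2 are pale or blue.

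Tm7sf2, a sterol reductase that follows the demethylation of lanosterol, had signals of 1661, 1004 and 1533 in b/b jejunum and 1016, 1181 and 1108 in +/b jejunum, against 2610.3, 3153 and 3245 in b/b duodenum and 2209.9, 2420.4 and 2093 in +/b duodenum. The highest jejunum array lay below the lowest duodenum array. The signal averaged 1251 ± 279 in the jejunum and 2622 ± 482 in the duodenum (SD, n = 6 each), a log2 difference of -1.07 ± 0.14 (limma adjusted p = 0.00126). Elovl6, which elongates palmitate, had signals of 1418, 697 and 1430.0 in b/b jejunum and 1799.7, 1582 and 2177 in +/b jejunum, against 2932, 3947 and 4081 in b/b duodenum and 3499, 3749 and 3886 in +/b duodenum. Here too no jejunum array reached a duodenum array, and the lowest was b/b jejunum replicate 2. The log2 difference was -1.34 ± 0.18 (limma adjusted p = 0.00138). These 2 genes were the only ones of the 31 (6.45%) whose 6 jejunum arrays all lay below the 6 duodenum arrays, against 0.853% of all probe sets. Both were called in 34 of 35 other settings, the exception being unscaled values.

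Within rat groups, 9 of the 31 genes (29.0%) were lower in the jejunum in 6 of 6 groups, against 4.85% of all probe sets. They were Elovl6, Fdps, Idi1, Mvd, Cyp51, Ebp, Msmo1, Sc5d and Tm7sf2. Fdft1, Sqle, Insig1, Srebf2, Tmem97, Mvk, Nsdhl, Hsd17b7, Dhcr7, Fasn and Me1 were lower in 5 of 6. For 8 of those 11 genes the group that went the other way was b/b group 1 (Insig1, Srebf2, Tmem97, Mvk, Nsdhl, Dhcr7, Fasn and Me1), and the sizes there were 0.02 to 0.68. Ggps1, which makes geranylgeranyl diphosphate on the branch away from sterols, was the only one higher in the jejunum in 6 of 6 groups, by 0.01 to 0.79, and 7.73% of all probe sets were.

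**Figure D2:**
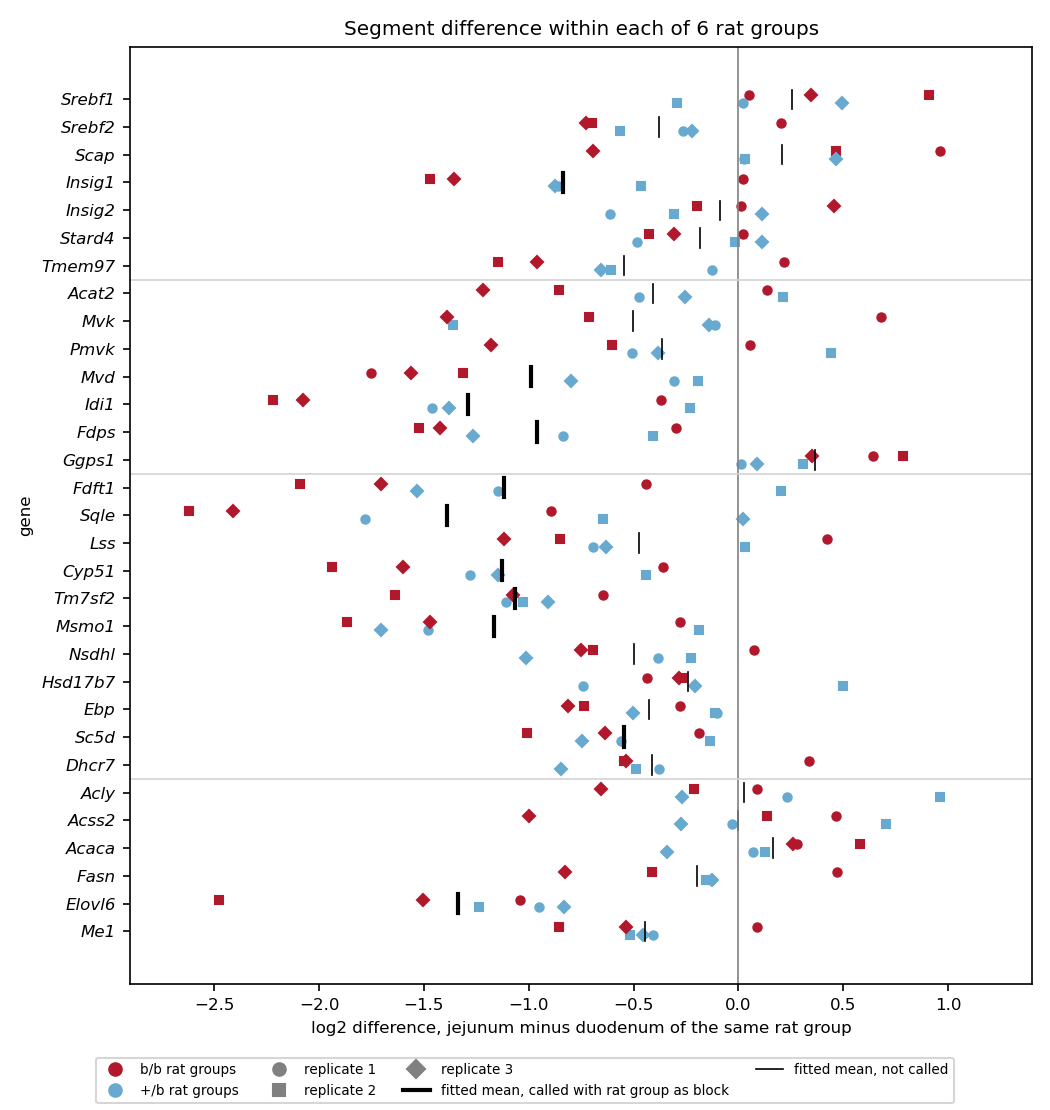
The log2 difference of jejunum minus duodenum is plotted along the horizontal axis for each of the 31 genes, with 1 point for each of the 3 b/b and 3 +/b rat groups. A black bar marks the fitted mean and is thick where the gene was called in the fit within rat groups. The points of Tm7sf2 lie between -1.64 and -0.65 and those of Elovl6 between -2.48 and -0.83, while b/b group 1 lies above 0 for genes such as Mvk and Dhcr7.

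Among the mevalonate and isoprenoid genes, Fdps, the farnesyl diphosphate synthase, had signals of 3021, 2529.6 and 3207 in b/b jejunum and 3024, 2199 and 2597 in +/b jejunum, against 3718, 7304 and 8633 in b/b duodenum and 5416, 2921 and 6272 in +/b duodenum. Only +/b duodenum replicate 2, of the duodenum arrays, fell among the jejunum arrays. The log2 difference was -0.96 ± 0.22 (limma adjusted p = 0.0524, and 0.00699 with the block). Idi1, the isomerase that makes dimethylallyl diphosphate, had signals of 1072, 1037 and 2360.1 in b/b jejunum and 1228, 1150.2 and 2006 in +/b jejunum, against 1388, 4897 and 10020.5 in b/b duodenum and 3409, 1352 and 5246 in +/b duodenum. Its range was 1037 to 2360.1 in the jejunum, against 1352 to 10020.5 in the duodenum, so the segments overlapped. Idi1 differed by a log2 value of -1.29 ± 0.43 (limma adjusted p = 0.207, and 0.00988 with the block). Its second probe set was also called lower with the block, with a log2 difference of -1.31 (limma adjusted p = 0.00594).

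Mvd, the decarboxylase that yields isopentenyl diphosphate, had signals of 54.1, 171 and 292 in b/b jejunum and 178, 246 and 306 in +/b jejunum, against 220.3, 449 and 894 in b/b duodenum and 224, 284 and 544 in +/b duodenum. The b/b jejunum array of replicate 1 was the lowest of all. Mvd differed by a log2 value of -0.99 ± 0.39 (limma adjusted p = 0.298, and 0.00815 with the block). Pmvk, the second kinase of the pathway, had signals of 548, 463 and 541 in b/b jejunum and 546, 449 and 506 in +/b jejunum, against 528, 710.0 and 1245 in b/b duodenum and 783, 327 and 666 in +/b duodenum. Only b/b duodenum replicate 3 stood well above the other arrays, and the log2 difference of -0.36 ± 0.23 did not pass with or without the block (limma adjusted p = 0.564 and 0.306). Mvk, the first kinase, gave -0.51 ± 0.29 and Acat2, the cytosolic thiolase that makes acetoacetyl-CoA, gave -0.41 ± 0.38, neither called with or without the block. Ggps1 gave 0.36 ± 0.19, also not called, on a dim probe set with a mean of 223. Its 2 still dimmer probe sets averaged 152 and 149 in the jejunum, against 91.7 and 64.6 in the duodenum. Both duodenum averages lay below the signal limit, so these probe sets passed it only through their jejunum arrays. Their direction is therefore not read as backing that of the brightest probe set. Neither was called with or without the block.

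Of the sterol steps, Cyp51, the lanosterol demethylase, had signals of 2741, 2425 and 4123 in b/b jejunum and 2918, 2661 and 3963 in +/b jejunum, against 3524, 9344 and 12516 in b/b duodenum and 7101, 3614 and 8805 in +/b duodenum. The duodenum arrays of b/b replicate 1 and +/b replicate 2 lay among the jejunum arrays and the other 4 above them. The log2 difference was -1.13 ± 0.30 (limma adjusted p = 0.0898, and 0.00539 with the block). Its dimmer probe set gave a similar log2 difference of -0.96, not called with the block (limma adjusted p = 0.0567).

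Msmo1, the methylsterol oxidase, had signals of 2312, 1852 and 4191 in b/b jejunum and 1909, 1649 and 3008 in +/b jejunum, against 2813, 6792 and 11636 in b/b duodenum and 5358, 1881 and 9834 in +/b duodenum. Again b/b duodenum replicate 1 and +/b duodenum replicate 2 lay within the range of the jejunum. Msmo1 differed by a log2 value of -1.16 ± 0.40 (limma adjusted p = 0.218, and 0.012 with the block). Sqle, the squalene epoxidase, had signals of 283, 278 and 703 in b/b jejunum and 326, 235 and 568 in +/b jejunum, against 539, 1790.0 and 3808 in b/b duodenum and 1159, 376 and 559 in +/b duodenum. It had the largest fitted difference of the 31 genes, -1.39 ± 0.43, and its segments overlapped (limma adjusted p = 0.165, and 0.0111 with the block).

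Fdft1, the squalene synthase, lay within 559 to 1296 in the jejunum, against 509.9 to 4254 in the duodenum (log2 difference -1.12 ± 0.24 and limma adjusted p = 0.0238, both with the block). Its second probe set gave -0.56 and was not called with the block (limma adjusted p = 0.16). Sc5d, a sterol desaturase, lay within 1876 to 2663 in the jejunum, against 2326 to 4146 in the duodenum (log2 difference -0.55 ± 0.12 and limma adjusted p = 0.0326, both with the block), and neither of its other 2 probe sets was called. Nsdhl, which removes a methyl carbon from the sterol ring, gave -0.50 ± 0.17 and was not called, but its dimmer probe set was called lower with the block (log2 difference -0.65, limma adjusted p = 0.0344).

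Dhcr7, the reductase of the last step to cholesterol, had signals of 2015, 1715 and 1629 in b/b jejunum and 1717, 1888 and 1951 in +/b jejunum, against 1594, 2515 and 2368 in b/b duodenum and 2237, 2656 and 3515 in +/b duodenum. The difference of -0.41 ± 0.15 was not called with or without the block (limma adjusted p = 0.259 and 0.117). Ebp, a sterol isomerase, gave -0.42 ± 0.16, Lss, the cyclase that makes lanosterol, gave -0.47 ± 0.29, and Hsd17b7, a sterol ketoreductase, gave -0.24 ± 0.23. None of these 3 was called with or without the block, and the dimmer Hsd17b7 probe set had the opposite sign (0.49).

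**Figure D3:**
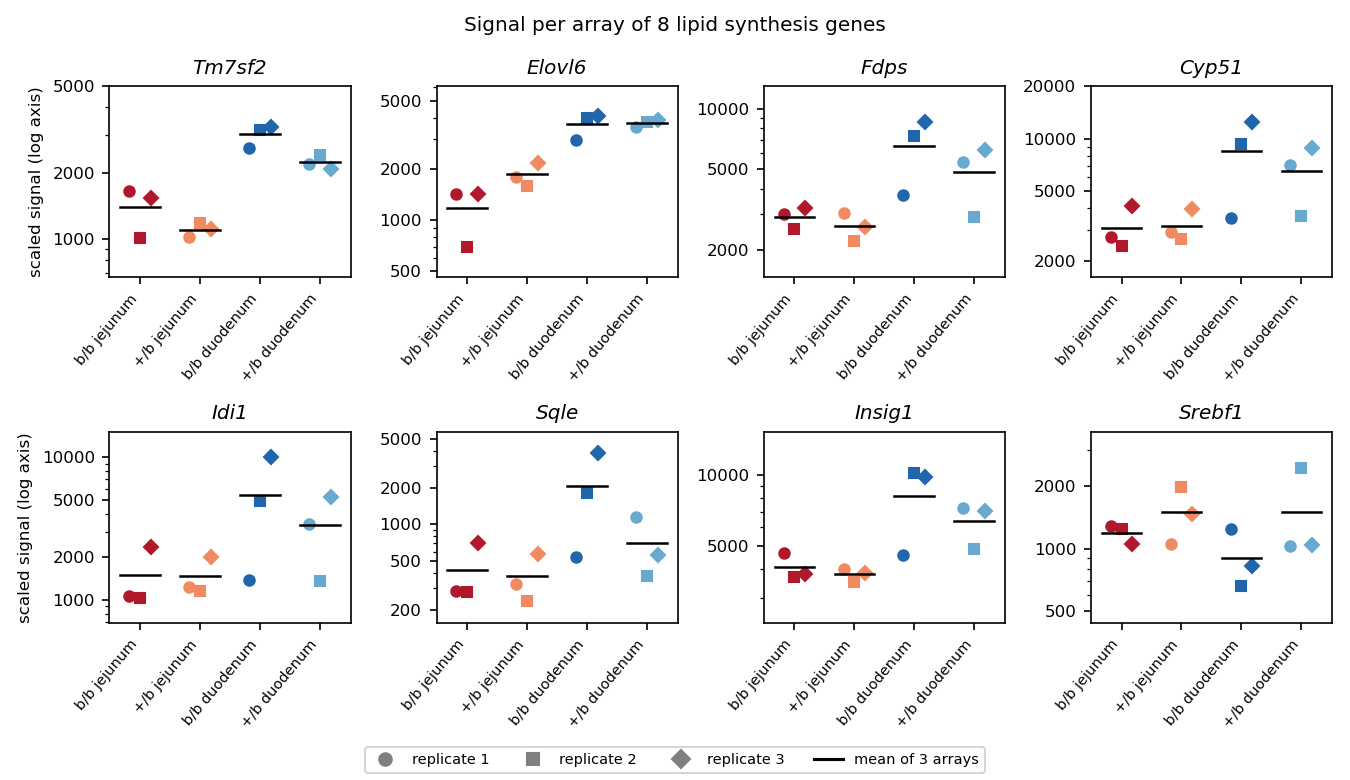
Scaled signal on a log axis is shown for 8 genes, with 1 point per array, a shape for each replicate number and a line at the mean of 3 arrays. The groups run from b/b jejunum and +/b jejunum to b/b duodenum and +/b duodenum. Tm7sf2 and Elovl6 show no overlap between the segments, Fdps, Cyp51, Idi1, Sqle and Insig1 spread widely in the duodenum, and Srebf1 shows no lower level in the jejunum.

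Among the regulators, Insig1, itself a gene induced by SREBP, had signals of 4655, 3679.8 and 3811 in b/b jejunum and 3979, 3521 and 3837 in +/b jejunum, against 4586, 10214 and 9796 in b/b duodenum and 7248, 4866 and 7061 in +/b duodenum. The lowest duodenum array, b/b replicate 1, lay below the highest jejunum array, and all other duodenum arrays lay above the jejunum arrays. The log2 difference was -0.83 ± 0.19 (limma adjusted p = 0.052, and 0.0189 with the block). Insig2, its relative, had signals of 1108, 994 and 1515 in b/b jejunum and 805, 912 and 1365 in +/b jejunum, against 1099, 1141 and 1102 in b/b duodenum and 1240.5, 1130.1 and 1260.0 in +/b duodenum. The segments overlapped throughout, and the log2 difference was -0.09 ± 0.15 (limma adjusted p = 0.861).

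Srebf1, the gene of SREBP-1, had signals of 1282, 1251 and 1051 in b/b jejunum and 1049.9, 1983 and 1475 in +/b jejunum, against 1239, 659.7 and 822 in b/b duodenum and 1033, 2432 and 1042 in +/b duodenum. Its difference was positive, 0.26 ± 0.23, and not called with or without the block (limma adjusted p = 0.709 and 0.357). Srebf2 gave -0.38 ± 0.20 and Scap 0.21 ± 0.19, neither called. Stard4, a cytosolic sterol carrier, had signals of 1933, 1950.1 and 2669 in b/b jejunum and 2244, 2008 and 2711 in +/b jejunum, against 1905, 2622 and 3302 in b/b duodenum and 3142, 2028 and 2502 in +/b duodenum, and its difference of -0.18 ± 0.17 was within the spread. The second Stard4 probe set averaged 1033 ± 147 in the jejunum, against 1378 ± 194 in the duodenum. The third and dimmest averaged 276 ± 59, against 337 ± 123 (SD over the arrays of a segment), and neither was called with or without the block. Tmem97, an endoplasmic reticulum protein tied to sterol handling, gave -0.55 ± 0.17 and was not called (limma adjusted p = 0.0982, both with the block).

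Apart from Elovl6, no gene of fatty acid synthesis was called in the segment comparison. The dimmer Elovl6 probe set gave -1.11 and was called with the block only (limma adjusted p = 0.0689 without it and 0.0169 with it). Me1, the malic enzyme that supplies NADPH, had signals of 6981, 4937 and 7012 in b/b jejunum and 5673, 5722 and 6068 in +/b jejunum, against 6566, 8947 and 10164 in b/b duodenum and 7527, 8204 and 8330.3 in +/b duodenum. It came near the limit with the block (log2 difference -0.45 ± 0.12, limma adjusted p = 0.0528). Acaca, the carboxylase that makes malonyl-CoA, had signals of 515, 568 and 573 in b/b jejunum and 438, 395 and 433 in +/b jejunum, against 421, 375 and 475 in b/b duodenum and 417, 360.1 and 553 in +/b duodenum. It lay slightly higher in the jejunum, by 0.16 ± 0.15, and was not called. Fasn, the fatty acid synthase, gave -0.20 ± 0.19. The acetyl-CoA suppliers Acly and Acss2 lay close to 0, with intervals of -0.65 to 0.70 and -0.51 to 0.51 (95%).

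The segment difference was also read in each genotype. In b/b rats, Elovl6 (-1.67 ± 0.26, limma adjusted p = 0.00668) and Tm7sf2 (-1.12 ± 0.20, limma adjusted p = 0.018) were called lower in the jejunum, where 0.763% of all probe sets were called. With the block, 7 genes were called lower (Cyp51, Elovl6, Fdps, Idi1, Mvd, Sqle and Tm7sf2), against 2.44% of all probe sets called. With the block as a random effect, Elovl6, Fdps, Sqle and Tm7sf2 were called and Cyp51, Idi1 and Mvd were not, against 1.98% of all probe sets. At an unadjusted p of at most 0.05, 12 genes were lower, against 3.5% of all probe sets, and Ggps1 was higher (0.59 ± 0.28, limma adjusted p = 0.511), against 6.26%. The count without the block was 0 without b/b duodenum replicate 2, 1 without b/b duodenum replicate 3 or b/b jejunum replicate 2, and 7 without b/b duodenum replicate 1. With the block it was 1 (Elovl6) without b/b group 2 or b/b group 3, and 13 without b/b group 1. The shares of all probe sets called in these leave-out fits are not given here either. The 3 jejunum arrays lay below the 3 duodenum arrays for 5 genes (16.1%), Elovl6, Tm7sf2, Fdps, Sc5d and Ebp, against 5.3% of all probe sets. They lay above them for Ggps1 and Acaca (6.45%), against 9.53%.

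In +/b rats no gene was called without the block, where 0.0565% of all probe sets were called, and 9 genes (29.0%) were lower at an unadjusted p of at most 0.05, with 0 higher, against 2.07% of all probe sets lower and 3.29% higher. With the block, Tm7sf2 was called (-1.01 ± 0.18, limma adjusted p = 0.0384), against 0.486% of all probe sets. It was lost when b/b group 3 or any one +/b group was left out, or with median centring. Elovl6 gave -1.01 ± 0.26, Insig1 -0.73 ± 0.28, Dhcr7 -0.57 ± 0.21 and Fdps -0.84 ± 0.32 in the fit without the block (limma adjusted p = 0.365 to 0.813). The jejunum arrays lay below the duodenum arrays for 7 genes (22.6%), Tm7sf2, Elovl6, Insig1, Dhcr7, Nsdhl, Me1 and Srebf2, against 4.71% of all probe sets.

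Between the genotypes, no gene of the 31 passed the test in either segment. In the jejunum no gene was called between b/b and +/b rats, where 0.0339% of all probe sets were called, and the median log2 change, b/b minus +/b, was 0.08, against -0.03 over all probe sets. That median was -0.03 without b/b jejunum replicate 3 or +/b jejunum replicate 2. Elovl6 had signals of 1418, 697 and 1430.0 in b/b jejunum, against 1799.7, 1582 and 2177 in +/b jejunum. The groups did not overlap, and the log2 change was -0.70 ± 0.26 (limma adjusted p = 1). Without b/b jejunum replicate 2, its lowest array, the change was -0.36. It was the only gene at an unadjusted p of at most 0.05 (3.23%, against 1.34% of all probe sets), and in the duodenum its change was -0.04 ± 0.26. Acaca had signals of 515, 568 and 573 in b/b jejunum, against 438, 395 and 433 in +/b jejunum, with b/b above +/b and a change of 0.38 ± 0.21. Acss2 was the third gene whose groups did not overlap, lower in b/b with a change of -0.22 ± 0.34. The share of all probe sets without overlap, in either direction, was 7.9%. Mvd, Tm7sf2 and Insig2 gave -0.67 ± 0.55, 0.31 ± 0.20 and 0.24 ± 0.22, and their groups overlapped. The Mvd value was -0.08 without b/b jejunum replicate 1 and -1.15 without b/b jejunum replicate 3.

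In the duodenum no gene was called either in limma, where 0.0396% of all probe sets were called. At an unadjusted p of at most 0.05 there were 0 genes, against 6.17% of all probe sets. The median change was 0.28, against -0.05 over all probe sets. Above 0 lay 23 of 31 genes (74.2%), against 44.5% of all probe sets, among them 16 of the 18 mevalonate and sterol genes (88.9%). The sign of the median of the 31 genes changed when single arrays were left out. Without b/b duodenum replicate 3 the median was -0.09 (10 of 31 genes above 0), and without +/b duodenum replicate 2 it was -0.02 (14 of 31). These 2 arrays are those of high pancreas signal, and without both the median was -0.23, with 2 of 31 genes above 0. Without b/b duodenum replicate 1 the median was 0.51. Without scaling the median of all probe sets moved to 1.51 and that of the 31 genes to 1.91.

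Sqle had duodenal signals of 539, 1790.0 and 3808 in b/b duodenum, against 1159, 376 and 559 in +/b duodenum. Its change was the largest, 1.28 ± 0.60, with an interval of -0.01 to 2.58 (95%) and a limma adjusted p of 0.789. The lowest array was +/b replicate 2 and the highest b/b replicate 3, and the groups overlapped. Tm7sf2 had 2610.3, 3153 and 3245 in b/b duodenum, against 2209.9, 2420.4 and 2093 in +/b duodenum, and was the only gene of the 31 (3.23%) whose groups did not overlap, against 8.7% of all probe sets. Its change was 0.42 ± 0.20 (limma adjusted p = 0.789). Srebf1 went the other way, at -0.64 ± 0.33, with +/b duodenum replicate 2 far above the other arrays. Dhcr7 gave -0.38 ± 0.21 and Pmvk 0.47 ± 0.33, and both overlapped between the genotypes. The Pmvk change turned to -0.011 without the 2 arrays deposited unscaled and to -0.23 without the 2 arrays of high pancreas signal. Several genes had a further probe set of the opposite sign in a genotype comparison (Fasn, Stard4 and Hsd17b7 in both segments, Srebf1, Cyp51, Nsdhl and Tmem97 in the jejunum, Me1, Ggps1 and Elovl6 in the duodenum), and none of these was called.

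Whether genotype acted differently in the 2 segments was tested as an interaction. No gene was called, and 0% of all probe sets were called in limma. At an unadjusted p of at most 0.05 there were 0 of the 31 genes, against 1.73% of all probe sets. The smallest p-values belonged to Elovl6 (-0.67 ± 0.36, jejunum minus duodenum), Acaca (0.42 ± 0.29), Mvd (-1.11 ± 0.77), Sqle (-1.17 ± 0.86) and Insig2 (0.36 ± 0.31), each with a limma adjusted p of 1. The intervals were wide, -3.01 to 0.66 for Sqle and -1.44 to 0.11 for Elovl6 (95%).

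**Figure D4:**
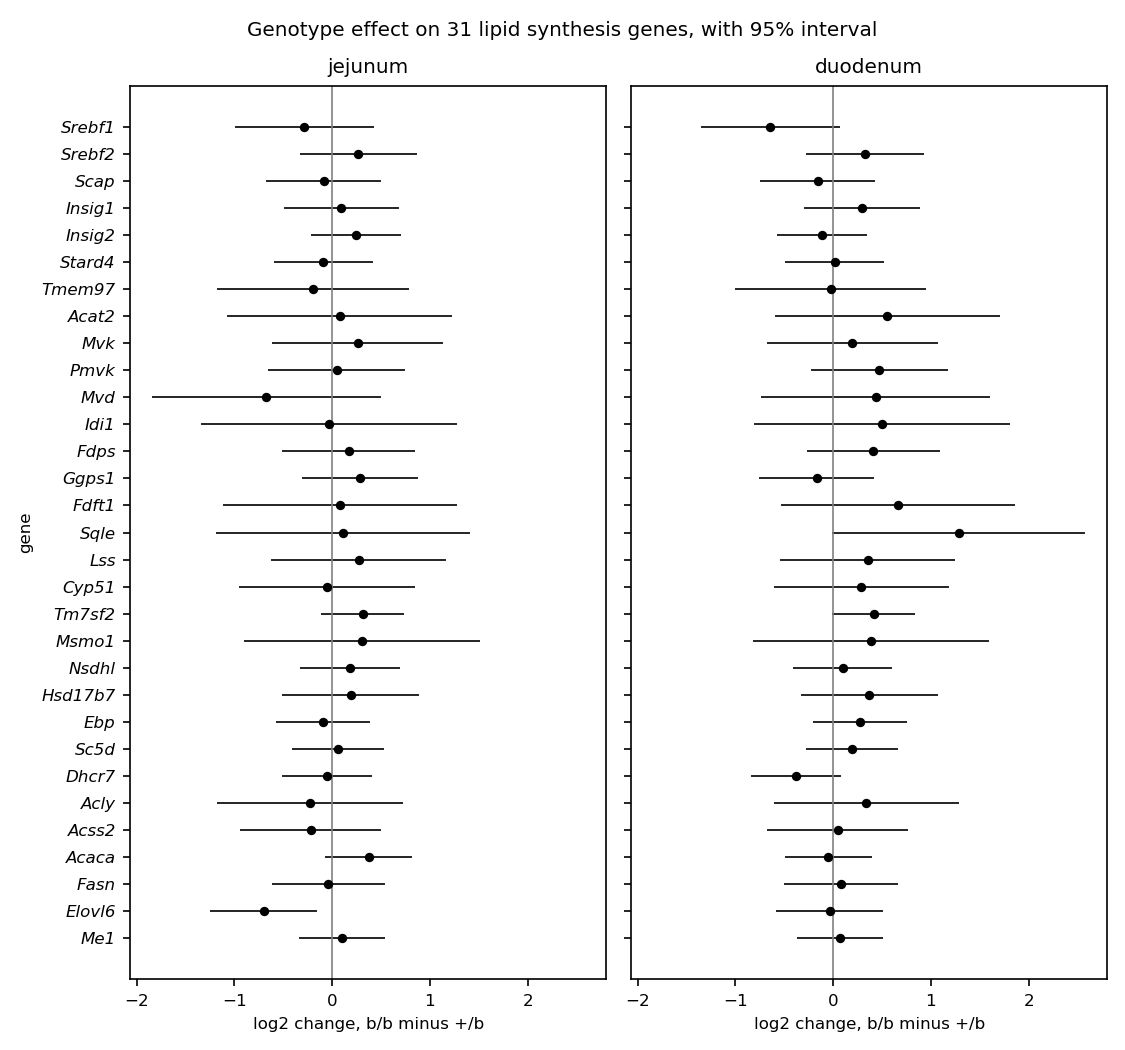
The log2 change of b/b minus +/b is plotted for each of the 31 genes with its 95% interval, for the jejunum on the left and the duodenum on the right. Every interval but that of Elovl6 in the jejunum includes 0, and that gene was not called after adjustment. The intervals of Sqle are among the wide ones.

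The genes varied together between arrays of 1 group. In b/b duodenum, replicate 3 was the highest of the 3 arrays for 27 of the 31 genes and replicate 1 the lowest for 28, against 33.7% and 37.1% of all probe sets. The array numbered 3 was also the highest for most genes in the other groups, 24 of 31 in b/b jejunum, 18 in +/b jejunum and 22 in +/b duodenum, where it was the highest for 31.1%, 35.4% and 31.6% of all probe sets. The median of the 18 mevalonate and sterol genes, relative to each gene's mean, was -0.23, -0.48 and -0.01 on the b/b jejunum arrays and -0.45, -0.50 and -0.19 on the +/b jejunum arrays. On the b/b duodenum arrays it was -0.21, 0.56 and 1.22, and on the +/b duodenum arrays 0.29, -0.36 and 0.60. The spread within the duodenum was thus wider than that within the jejunum, and b/b duodenum replicate 1 and +/b duodenum replicate 2 lay at the level of the jejunum.

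Several array-wide measures ran with these numbers. In each group the array numbered 1 had the highest 99th percentile of scaled signal (13879.7 to 15564) and the array numbered 3 the lowest (10147 to 11687), and enterocyte markers averaged 15.38 to 15.96 on arrays numbered 1 and 14.08 to 14.56 on arrays numbered 3. The ratio of the 3′ to the 5′ beta-actin control was 2.96 on b/b duodenum replicate 3 and 1.33 to 2.35 elsewhere, and that of GAPDH was 1.04 to 1.43. The part of these measures in the levels of the lipid genes was not tested. With the replicate number as an additive term, 11 genes were called in the segment comparison, against 4.01% of all probe sets.

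**Figure D5:**
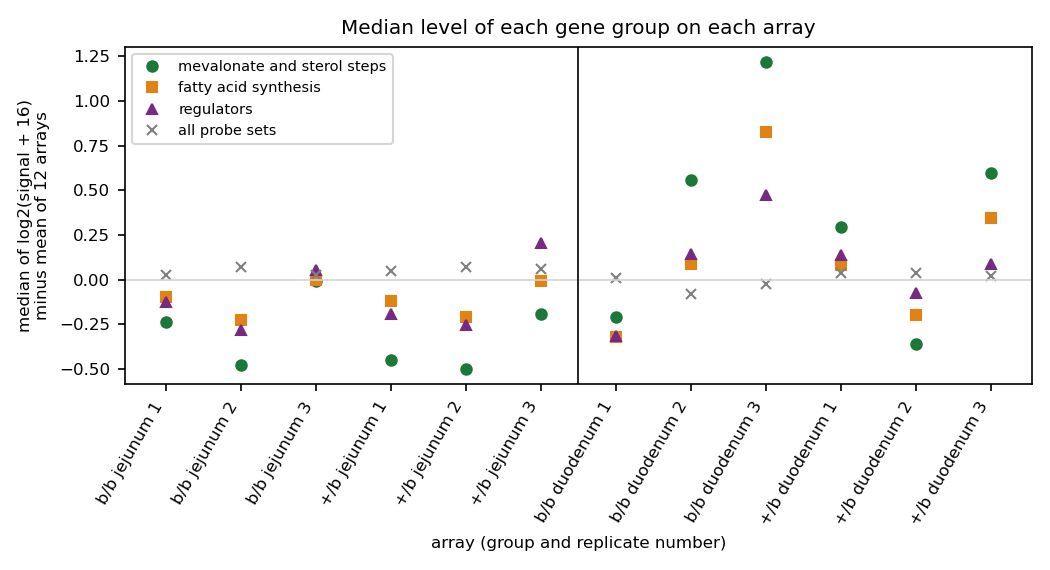
The median of log2(signal + 16) minus the gene's mean is plotted for each array, for mevalonate and sterol genes, fatty acid synthesis genes, regulators and all probe sets. The 6 jejunum arrays are on the left and the 6 duodenum arrays on the right. The mevalonate and sterol genes reach 1.22 on b/b duodenum replicate 3 and -0.50 on +/b jejunum replicate 2, while all probe sets stay between -0.08 and 0.07.

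Of 38 genes of neighbouring lipid pathways, 28 were tested, and their median segment difference was 0.06 (16 above 0 and 12 below). Mylip, the ubiquitin ligase that degrades the LDL receptor and is induced by LXR, went the other way from the sterol genes. It had signals of 1055, 1097 and 961 in b/b jejunum and 978, 973 and 650.0 in +/b jejunum, against 677, 411 and 233 in b/b duodenum and 581, 594 and 589 in +/b duodenum. It was the only one of the 28 called without the block, higher in the jejunum by 0.93 ± 0.21 (limma adjusted p = 0.0468, and 0.012 with the block). With the block, Abcg8, a subunit of the sterol exporter of the brush border (0.76 ± 0.17, limma adjusted p = 0.0327), and Elovl5, an elongase of polyunsaturated fatty acids (0.64 ± 0.16, limma adjusted p = 0.0457), were also called higher. With the block as a random effect neither was called (limma adjusted p = 0.0882 for Abcg8 and 0.0556 for Elovl5), and Mylip was (0.00853). Read by genotype with the block, Mylip (1.33, limma adjusted p = 0.0167) and Abcg8 (1.08, limma adjusted p = 0.0453) were called in b/b rats. In +/b rats neither was (0.52 and 0.43, limma adjusted p = 0.474 and 0.558). The difference between the genotypes was not called for Mylip or Abcg8. Elovl5 was called in neither genotype. Fntb, a subunit of farnesyltransferase, gave 0.61 ± 0.17 and was not called (limma adjusted p = 0.0718 with the block). None of the 28 was lower by the test, with or without the block.

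Promoter windows of 300 bases, from 250 before to 50 after a transcript start in RefSeq, were available for 24 of the 31 genes (25 windows, build GRCr8). The transcript start was the outer end of the gene's annotated span in 14 windows and lay 31 to 12839 bases inside it in 11, Tm7sf2 being the one at 31. The NF-Y box CCAAT, read on both strands, was found in 20 of 25 windows (80%), against 37.5% of 9331 windows of all genes tested. The Sp1 box GGGCGG was found in 21 (84%), against 61.1%, and the E-box CACGTG in 3 (12%), against 9.24%. The sterol regulatory element core TCACNCCAC was found in 0 of 25, against 1.03%, which says only that these letters are absent from these windows. NF-Y and Sp1 are known as partners of SREBP on promoters of sterol genes. A match is a description of the letters, and no binding was measured. In the 4 windows printed, no NF-Y box overlapped an Sp1 box. Among the genes called lower in the jejunum with the block, 8 had a window. Of the 5 with at least 2 NF-Y boxes, Mvd is not printed and the other 4 are printed as examples. They lie at chr1:212789492-212789791 (minus strand) for Tm7sf2, chr2:176804767-176805066 (minus strand) for Fdps, chr17:66547475-66547774 (minus strand) for Idi1 and chr16:29746863-29747162 (plus strand) for Msmo1. Each is written 5′ to 3′ on the strand of the gene, and capitals mark the NF-Y boxes (CCAAT, or ATTGG where the box lies on the other strand).
Tm7sf2: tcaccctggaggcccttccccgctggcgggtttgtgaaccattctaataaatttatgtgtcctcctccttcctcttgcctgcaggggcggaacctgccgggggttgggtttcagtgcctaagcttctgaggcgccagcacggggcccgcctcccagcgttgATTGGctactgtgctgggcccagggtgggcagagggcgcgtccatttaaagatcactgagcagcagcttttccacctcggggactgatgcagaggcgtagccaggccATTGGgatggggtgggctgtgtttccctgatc
Fdps: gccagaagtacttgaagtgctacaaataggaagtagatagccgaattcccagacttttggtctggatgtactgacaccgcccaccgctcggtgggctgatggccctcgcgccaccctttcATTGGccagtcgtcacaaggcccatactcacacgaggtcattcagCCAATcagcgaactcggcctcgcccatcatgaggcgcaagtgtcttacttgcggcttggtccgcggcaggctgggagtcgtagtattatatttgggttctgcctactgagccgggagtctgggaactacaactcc
Idi1: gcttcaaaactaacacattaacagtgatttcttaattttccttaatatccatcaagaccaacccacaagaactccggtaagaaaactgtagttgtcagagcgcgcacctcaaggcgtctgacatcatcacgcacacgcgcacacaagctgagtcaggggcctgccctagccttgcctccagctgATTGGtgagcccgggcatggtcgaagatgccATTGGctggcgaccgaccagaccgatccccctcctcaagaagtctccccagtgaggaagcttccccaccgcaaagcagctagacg
Msmo1: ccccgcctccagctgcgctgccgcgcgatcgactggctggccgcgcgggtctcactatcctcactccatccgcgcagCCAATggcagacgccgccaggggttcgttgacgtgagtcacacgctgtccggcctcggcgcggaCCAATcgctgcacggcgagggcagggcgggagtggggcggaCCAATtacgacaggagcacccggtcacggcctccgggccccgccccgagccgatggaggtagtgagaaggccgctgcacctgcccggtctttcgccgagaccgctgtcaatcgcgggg
Tm7sf2, Fdps and Idi1 held 2 boxes each and Msmo1 held 3, and of the other called genes with a window Mvd held 2, Insig1 and Sc5d held 1 each and Cyp51 held 0. Genes that were not called held 0 to 5 boxes, with 5 each in Mvk and Nsdhl, 3 in Hsd17b7 and 0 each in Acat2, Dhcr7, Me1 and Scap. A link between boxes and calls was not tested.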

How the data were processed

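RNA of mucosal scrapes was hybridised to 12 Affymetrix rat arrays, per the labels' protocols. The authors deposited 1 linear signal intensity per probe set and array. For 10 of 12 arrays the submitters' processing notes name MAS5 (all but b/b jejunum replicates 2 and 3), with version and settings not given in the sources used here. Judged by their trimmed means, 2 arrays (+/b duodenum replicates 2 and 3) had not been scaled like the others, so each array was multiplied to a trimmed mean of 500 (2% trimmed at each end). The 57 control probe sets were removed. Of 31042 others, the platform annotation gave 1 gene for 20826, several for 436 and none for 9780. Those whose scaled signal averaged 100 or more were tested as log2(signal + 16).

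In limma 3.58.1, run in R 4.3.3, 1 linear model held the 4 group means of the 12 arrays. Its tests were two-sided, moderated by eBayes with a trend on intensity, with Benjamini-Hochberg adjustment over 17694 probe sets and a threshold of 0.05. The fits were tested on simulated data that held independent noise and a rat-group effect. No effect shared by same-numbered arrays of different genotypes was simulated, so that test does not cover such an effect. Per the series design each rat group gave both segments. Jejunum and duodenum arrays of 1 genotype with the same replicate number in the labels were taken as 1 rat group, and their deviations from the group means correlated at 0.16 to 0.38 (b/b) and 0.19 to 0.28 (+/b). The rat group was therefore also fitted as a block. Same-numbered arrays of different genotypes, from different rats, correlated at -0.06 to 0.45. Without the block, p-values rest on the spread between arrays of a group, each from another rat group, and ignore the pairing of segments. With the rat group as a block, those of the segment comparisons rest on how far segment differences vary between rat groups. Precision is limited by the number of arrays.

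The 33 genes, their roles, the neighbouring genes, marker lists and motifs were chosen with earlier results of these data known. Values on every array are given for genes called without the block in any comparison, for the 5 of smallest p in each comparison and for the 2 brightest of each role. Further probe sets are given where their sign or call differed. Neighbouring genes are named where called, or among the 4 of smallest p in the segment comparison over both genotypes. None of the 28 was called between the genotypes in either segment, and those values are not given. Alternatives covered the pseudocount, filter, scaling, trend, array weights, block, left-out arrays and the choice of probe set.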

Additional observations from a re-analysis of the deposited data

How the results depend on the processing

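In the comparison of jejunum with duodenum over both genotypes, 2 genes were called as reported. The count was 4 with a pseudocount of 64, a signal limit of 200, median centring, the mean of a gene's probe sets, or without both arrays of high pancreas signal. It was 13 with array weights, 11 with the replicate block, 8 with the block as a random effect, 11 with the replicate number as an additive term and 0 without rescaling. Leaving out 1 array at a time gave 2 to 7, with 7 reached without +/b duodenum replicate 2 or b/b duodenum replicate 1. Of all probe sets, 1.4% were called as reported, 4.49% with the replicate block, 4.02% with it as a random effect and 4.01% with the additive term. Where no share of all probe sets is given, a changed count cannot be read as particular to the lipid genes. This holds for every count of this section. In b/b rats the 2 calls became 0 without rescaling, 1 without the intensity trend, with only the groups compared, or without both arrays of high pancreas signal, 9 with array weights, 7 with the replicate block and 4 with it as a random effect; leaving out 1 array gave 0 to 7. In +/b rats the 0 calls became 5 without rescaling and 1 with the replicate block, with the random effect or with the additive term. The duodenal genotype comparison went to 1 call without rescaling.

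With the replicate block and 1 rat group left out, the counts were 5 to 18 over both genotypes (18, 5 and 7 without b/b groups 1, 2 and 3, and 5, 11 and 10 without +/b groups 1, 2 and 3), 1 to 13 in b/b rats (13, 1, 1, 4, 9 and 9 in the same order) and 0 to 2 in +/b rats (1 without b/b group 1 and 2 without b/b group 2). With the block, quantile normalization gave 11, 7 and 1, and median centring 11 and 7 over both genotypes and in b/b rats, with 0 in +/b rats. For the genotype comparisons within a segment the block was the replicate number, which pairs b/b and +/b arrays of different rats. It changed no call of the 31 genes there. The additive term, the fits that leave out a rat group under the block and the block with another scaling were chosen after seeing the data.

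Signs turned without rescaling for Srebf1 (1.06) and Dhcr7 (1.35) in the duodenal genotype comparison, for Tm7sf2 (0.70), Elovl6 (0.72), Insig1 (1.00), Dhcr7 (1.15) and Fdps (0.89) between the segments of +/b rats, for Insig1 (0.033) over both genotypes, and for Acaca (-1.14) and Insig2 (-1.32) in the difference of genotype effects, where 2 arrays keep a lower scale by construction. Pmvk turned to -0.011 without both arrays deposited unscaled and to -0.23 without both arrays of high pancreas signal, and the cause was not tested. The other 886 values of single genes kept direction and call, 79 gained a call and 13 lost one.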
